A study of Homo sapiens with 12 samples.

Results

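The genes described here encode the proteins of the mitochondrial ribosome. They were taken as the rows of the gene tables whose symbol is MRPL or MRPS, a number and at most 1 letter from A to C, with nothing after it. This rule found 76 genes of 57905, with 47 MRPL and 29 MRPS symbols, and it used no measured value. Of these, 71 were measured, meaning 10 CPM (UMIs of the gene per 1000000 human UMIs of the library) or more in at least 1 of the libraries, and 7980 genes of all kinds passed the same floor.

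Mitochondria keep a ribosome of their own, which makes the few proteins that mitochondrial DNA encodes, all of them subunits of the respiratory chain and ATP synthase. Its rRNAs are mitochondrial transcripts, but its proteins are encoded in the nucleus, made in the cytosol and imported, so building it needs both genomes. One group of its proteins has counterparts in bacterial ribosomes, and the other was gained in mitochondria. Symbols starting with MRPL mark the large subunit and those starting with MRPS the small subunit, except that MRPS18A and MRPS30 sit in the large subunit and that MRPS36 has since been assigned to the alpha-ketoglutarate dehydrogenase complex. The measured genes therefore held 46 proteins of the large subunit, 24 of the small subunit and MRPS36.

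Expression was read from Nalm-6, a human precursor B acute lymphoblastic leukemia cell line, by 3' single-cell RNA-seq with 1 library per group. The library labelled RUNX1 came from cells with a Tet-On regulator and a lentiviral doxycycline-responsive RUNX1 vector, 72 h after induction with 500 ng/ml doxycycline. The control is labelled empty vector and 72 h, yet it is titled DMSO and no doxycycline is given for it, so effects of vector, inducer, culture and RUNX1 cannot be told apart. The comparison asked what changes in these leukemia cells when the transcription factor RUNX1 is induced. Since each group has a lone library, the conditions could not be tested against each other, no value has a replicate check, and every interval is a 95% interval for counting error only.

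The filter on cells kept 5598 cells with 75754137 UMIs in the control, and 4800 with 75350615 UMIs in the library labelled RUNX1, at medians of 12505.5 and 14805 UMIs per cell. RUNX1 itself was lower in the library that carries its name, at 30.4 CPM against 69.7 CPM in the control, which goes against the label. Whether the 3' assay counts the transcript of the vector and whether the sample labels were exchanged was not tested, and with exchanged labels each difference below would have the opposite sign relative to induction. All 12 listed B precursor markers in the annotation were measured, at a summed 5462 and 6312 CPM, and 0 of the T cell, myeloid, erythroid or fibroblast markers reached the floor. The libraries shared 12 barcodes, 10 of them among passing cells. Mitochondrial transcripts took 9.45% of the UMIs of the control and 13.1% of those of the library labelled RUNX1, and cytosolic ribosomal protein genes 25.4% and 30.0%.

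A UMI counts 1 molecule by its 3' end, so the levels of these genes carry no term for transcript length. The mean of both libraries ran from 18.3 to 272 CPM, with a median gene at 97.5 CPM for the control and 80.6 CPM for the library labelled RUNX1. The highest was MRPS34, a mitochondria-specific protein of the small subunit, at 310.5 CPM in the control (23522 UMIs) and 234 CPM (17599 UMIs) in the library labelled RUNX1. MRPL51 followed at 262 and 221 CPM, then MRPL20 at 246 and 172 CPM, MRPL12 at 232 and 145 CPM and MRPL52 at 205 and 128 CPM. All 5 were higher in the control, as were 60.1% of all 7980 measured genes. MRPL12 forms the stalk of the large subunit on which translation factors dock, MRPL20 is a conserved protein of the large subunit, and MRPL51 and MRPL52 are mitochondria-specific.

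Promoter sequences were read for letters that these genes share. RefSeq promoter windows, which run from 250 bases before to 50 bases after the annotated start on GRCh38.p14, were matched for 62 of the 71 measured genes, with 1 window per gene. The letters CCGGAAG, the core bound by ETS family factors, occurred on either strand in 25 of the 62 windows (40.3%), against 22.6% of the windows of 6090 measured genes and 10.7% of 27305 windows in all. The first 250 bases of the windows, before the start, held 28 matches in 22 of the 67 members with a window, measured or not, 23 of them within 100 bases of the start. Positions were not counted for other genes, and the shares above are for full windows, so these counts have no background. The windows of MRPS34, MRPL20 and MRPL51 are shown because they belong to the highest genes and hold several matches each, and that of MRPL1 because it had the lowest ratio of all measured members and holds none. Each line gives the 250 bases before the start, read along the gene, with CCGGAAG or its complement CTTCCGG in capitals.
MRPS34: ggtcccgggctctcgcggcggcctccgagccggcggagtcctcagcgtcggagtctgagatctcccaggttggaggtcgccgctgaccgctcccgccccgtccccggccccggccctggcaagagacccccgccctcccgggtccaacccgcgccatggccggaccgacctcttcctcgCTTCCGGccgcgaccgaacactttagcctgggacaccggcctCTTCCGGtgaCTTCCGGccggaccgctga
MRPL20: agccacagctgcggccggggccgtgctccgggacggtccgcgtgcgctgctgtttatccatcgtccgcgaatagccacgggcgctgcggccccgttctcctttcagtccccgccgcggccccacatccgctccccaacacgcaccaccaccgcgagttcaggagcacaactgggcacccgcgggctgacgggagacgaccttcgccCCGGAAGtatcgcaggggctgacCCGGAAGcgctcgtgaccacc
MRPL51: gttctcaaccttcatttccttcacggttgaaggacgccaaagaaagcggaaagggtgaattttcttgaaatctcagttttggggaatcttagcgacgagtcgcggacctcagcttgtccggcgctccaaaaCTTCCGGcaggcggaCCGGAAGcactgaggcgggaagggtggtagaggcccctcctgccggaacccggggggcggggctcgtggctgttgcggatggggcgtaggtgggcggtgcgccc
MRPL1: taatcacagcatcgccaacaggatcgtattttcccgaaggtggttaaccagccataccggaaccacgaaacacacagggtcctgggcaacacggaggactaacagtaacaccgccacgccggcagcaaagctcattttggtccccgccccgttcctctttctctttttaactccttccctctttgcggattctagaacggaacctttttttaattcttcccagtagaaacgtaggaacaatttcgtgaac
These windows lie at chr16:1773135-1773384 (MRPS34, minus strand), chr1:1407294-1407543 (MRPL20, minus), chr12:6493263-6493512 (MRPL51, minus) and chr4:77862580-77862829 (MRPL1, plus). MRPS34 held 3 matches, starting 71, 29 and 19 bases before the start, MRPL20 held 2, at 44 and 21 bases, and MRPL51 held 2, at 119 and 104 bases. Windows of MRPL12 and MRPL52 held no match in these 250 bases. The match did not separate genes by their ratio between the libraries, with a median log2 ratio of -0.27 for the 25 genes with it and -0.27 for the 37 without. Other letters, also sought on both strands, were nearer to the measured genes or less frequent. TGCGCA, a part of the NRF1 motif, occurred in 21.0% of members' windows and 15.7% of those of measured genes. The longer form of GCGC and TGCGC with 1 base between them, which shares letters with it, occurred in 9.68% and 14.3%. The E-box CACGTG occurred in 9.68% and 11.2%, and TGTGGT, a form of the RUNX motif, in 4.84% and 8.82%. A match of letters is a description, and binding of a factor was not measured here.

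Taken over all cells, the mitochondrial ribosomal protein genes were modestly lower in the library labelled RUNX1. Their summed level was 7560 CPM (7540 to 7579; 572681 UMIs) for the control and 6049 CPM (6032 to 6067; 455812 UMIs) for the library labelled RUNX1, which is 0.80-fold and a log2 ratio of -0.322 (-0.327 to -0.316). Both subunits took part, with the large subunit at 4931 and 3931 CPM and the small subunit at 2538 and 2017 CPM. Of the 71 measured genes, 60 had an interval below 0 (53.2% of all genes) and 7 had one above 0 (33.6% of all genes). For 4 the interval held 0 (13.2% of all genes). Whether an interval clears 0 also depends on the UMIs of a gene, and these shares were not matched for level. The median log2 ratio was -0.27, with the middle of the genes between -0.50 and -0.18, at -0.28 in the large subunit, -0.28 in the small subunit, -0.30 for proteins with bacterial counterparts and -0.27 for mitochondria-specific ones.

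**Figure D1:**
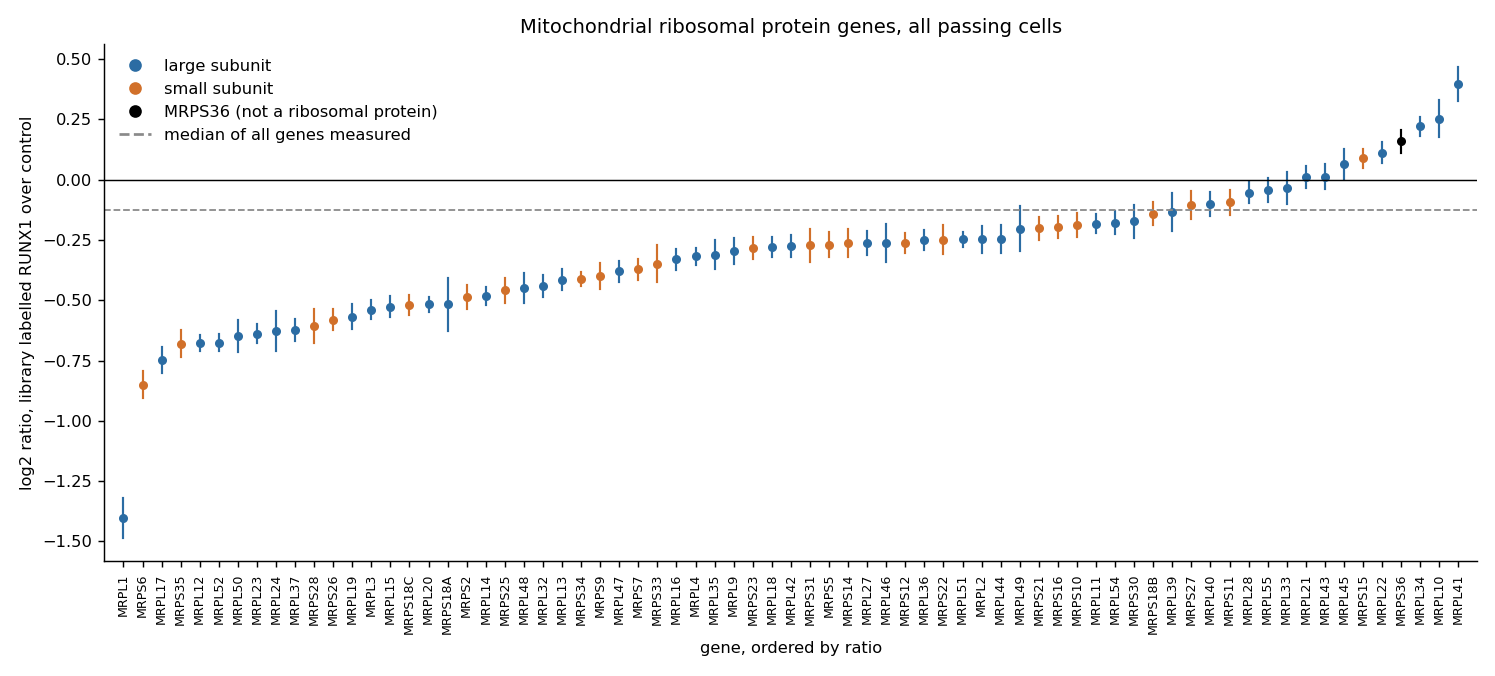
Log2 ratio, library labelled RUNX1 over control (vertical axis), for each of the 71 measured genes, ordered by ratio, with 95% intervals for counting error as bars and colours for the subunit. MRPL1 lies at -1.40, apart from MRPS6 at -0.85, 62 genes lie below 0, and the dashed line is the median of all 7980 genes at -0.13.

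This shift has to be read against the rest of the transcriptome, which was also lower at the median. All 7980 measured genes had a median log2 ratio of -0.13 and a wider spread, with an interquartile range of 0.69 against 0.32 for the members. A log2 ratio of -0.5 or lower was seen in 18 of the 71 genes (25.4%), against 21.4% of all genes, and a log2 ratio of 0.5 or higher in 0 of the 71, against 13.8% of all genes. The first share is near the background. More of the members, 56 of 71 (78.9%), lay below the median of all genes, which 50% of all genes do. That excess was absent among well expressed genes and smaller at an equal mix of cell cycle calls. At a floor of 50 CPM, 31 of 62 members (50%) lay below the median of the 2860 genes left, and the medians of members and all genes were both -0.28. With the cells of the library labelled RUNX1 weighted to the phase mix of the control (described with the cell cycle calls below), 46 of 71 (64.8%) lay below the median of all genes, the difference of the medians was -0.0673 in place of -0.147, and 8 genes were lower by 0.5 or more, against 13.4% of all genes. The gene that just passed the limit of -0.5 was MRPS18A at -0.52, and the nearest that did not was MRPS2 at -0.48.

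How large the shift is depends on what the UMIs are scaled to. Without mitochondrial and cytosolic ribosomal protein genes in the totals, every log2 ratio rises by 0.20 and the members' median becomes -0.08. Then 49 of the 71 genes lie below 0 (44.8% of the same 7980 genes). The median of the 9296 genes that reach the floor on this scale is 0.12. With TMM factors every ratio falls by 0.13, the median becomes -0.40 and 67 of 71 genes lie below 0 (68.8% of all genes), against 62 as reported (60.1%). Relative to the median of all genes, the members' median was -0.15 as reported, -0.20 without those genes in the totals and -0.14 with TMM. The floor was applied again on each scale, so these medians rest on 7980, 9296 and 7959 genes. With the genes held fixed, a shift of every ratio by the same amount leaves this distance unchanged.

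MRPL1 stood apart from every other measured member. It encodes the protein of the L1 stalk, the mobile part of the large subunit where spent tRNA leaves, and lies on GRCh37 chromosome 4 at 78783984 to 78873939. It had 4304 UMIs in the control, or 56.8 CPM, and 1621 UMIs, or 21.5 CPM, in the library labelled RUNX1. Its log2 ratio of -1.40 (-1.48 to -1.32) was the only one among the 71 past 2-fold. Of all measured genes, 4.1% were lower and 5.18% higher by 2-fold or more, and 0.88% had a ratio below that of MRPL1. Within each library the level of MRPL1 was alike in every state of the cell cycle. In control cells called G1, S and G2/M it was 57.1, 55.3 and 59.2 CPM. In those of the library labelled RUNX1 it was 20.01, 24.0 and 22.5 CPM. The classes of a library share its culture and preparation and are not replicates, and MRPL1 was named for having the lowest ratio. Its ratio stayed between -1.53 and -1.20 under the other scalings. The 10 other measured genes within 2 Mb on either side had log2 ratios from -0.52 (SDAD1) to 1.09 (CCNG2).

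Among the other low members were several conserved core proteins. MRPS6, of the small subunit, had 96.0 CPM for the control and 53.2 CPM for the library labelled RUNX1 (log2 -0.85, -0.91 to -0.79), but its exons overlap SLC5A3 on the same strand. MRPL17 had 96.1 and 57.3 CPM (-0.75, -0.80 to -0.69). MRPS35, mitochondria-specific and of the small subunit, had 91.2 and 56.9 CPM (-0.68, -0.74 to -0.62). The control value was the higher of each pair, and the 3 genes lay close together in each library. MRPL12 and MRPL52 were each at a log2 ratio of -0.68, MRPL50 at -0.65 (64.9 and 41.4 CPM) and MRPL23 at -0.64 (185 and 119 CPM). MRPL23 lies at the rim of the exit tunnel, through which the new protein leaves. MRPL12 shares exons with a further annotated gene on its strand, and MRPS6, MRPS35 and MRPL50 have pseudogene rows, so their reads may be split between copies.

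At the other end, 9 of the 71 genes lay above 0. The other 62 lay below it, as did 60.1% of all 7980 measured genes. MRPL41, a mitochondria-specific protein of the large subunit, had 2979 UMIs in the control (39.3 CPM) and 3900 in the library labelled RUNX1 (51.8 CPM), a log2 ratio of 0.40 (0.33 to 0.47). MRPL10, which anchors the MRPL12 stalk, had 32.9 and 39.3 CPM (0.25, 0.18 to 0.33), and MRPL34 had 125 and 146 CPM (0.22, 0.18 to 0.26). The stalk proteins MRPL10 and MRPL12 thus lay on opposite sides of 0. MRPS36, which is not a ribosomal protein, had 90.7 and 101 CPM (0.16, 0.11 to 0.21). MRPL22, at the exit tunnel, was at 0.11, MRPS15 at 0.09, MRPL45, which ties the ribosome to the inner membrane, at 0.06 and MRPL43 at 0.01. With TMM or median-of-ratios scaling, MRPL22, MRPS15, MRPL45, MRPL43 and MRPL21 moved below 0, while MRPL41 stayed at 0.27 and MRPL34 at 0.09 with TMM.

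The MRPS18 paralogs, which take different places in the ribosome, differed in size. MRPS18A, in the large subunit, had 21.5 and 15.0 CPM (-0.52, -0.63 to -0.41), and MRPS18C, in the small subunit, had 151 and 105 CPM (-0.52, -0.56 to -0.48). MRPS18B, also in the small subunit, had 98.6 and 89.4 CPM (-0.14, -0.19 to -0.09), and its interval did not overlap those of the other paralogs. In the scaling without mitochondrial and cytosolic ribosomal protein genes MRPS18B moved above 0.

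Under the floor were 5 members, with little to read. MRPS24 had 325 UMIs for the control but only 114 for the library labelled RUNX1 (4.29 and 1.51 CPM; log2 -1.50, -1.82 to -1.19), and it shares exons with the readthrough gene URGCP-MRPS24. MRPL53 had 216 and 248 UMIs, MRPL38 had 88 and 86, and MRPL30 had 24 and 33. The row named MRPS17 had 11 and 0 UMIs, but its identifier belongs to an annotated gene that overlaps MRPS17 and ZNF713. A second row, with the identifier that the annotation gives to MRPS17, had 1755 and 1617 UMIs (23.2 and 21.5 CPM; log2 -0.11, -0.21 to -0.01) and falls outside the rule because its symbol has a suffix. Levels of these genes in the cells cannot be taken from such rows alone.

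The libraries differ strongly in their cell cycle calls, and the genes were therefore also read within each state. Below, G1 cells and S or G2/M cells are cells so called from their transcripts. Cells were thinned to 8000 UMIs before the call, which left out 413 cells (control) and 612 cells (library labelled RUNX1). Of the cells called, 8.20% of the control and 56.7% of the library labelled RUNX1 were called G1, and 224 and 243 cells lay within 0.05 of the score limit, so these classes are ranges of a score. In S or G2/M cells, the summed level was 7594 CPM for the control and 6651 CPM for the library labelled RUNX1, a log2 ratio of -0.19 (-0.20 to -0.18). In G1 cells, it was 7209 and 5490 CPM, a log2 ratio of -0.39 (-0.41 to -0.38). S cells alone gave -0.18 and G2/M cells alone -0.21. The library labelled RUNX1 was the lower in each state.

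**Figure D2:**
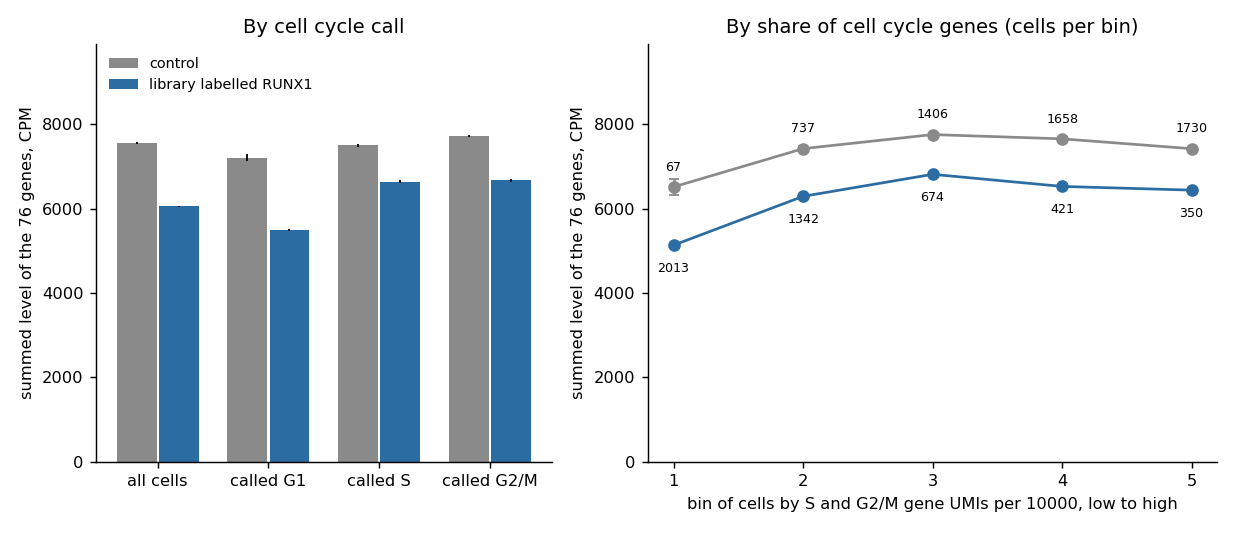
Summed level of the 76 genes in CPM, by cell cycle call (left, bars from 0) and in 5 bins of cells ordered by their share of S and G2/M gene UMIs (right, with the number of cells printed); error bars are 95% counting intervals. The control lies above the library labelled RUNX1 in every call and every bin, and both are lowest in the first bin, at 6513 and 5133 CPM.

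Gene by gene, the difference between the libraries was smaller in S or G2/M cells. The members' median log2 ratio there was -0.22, against -0.12 for all genes, with 7 of 71 genes lower by 0.5 or more (12.6% of all genes) and 0 higher by as much (8.03% of all genes), and 47 of 71 were below the median of all genes, as 50% of all genes are. In G1 cells the median was -0.39, against -0.09 for all genes. There 23 of 71 genes were lower by 0.5 or more (23.9% of all genes) and 0 higher (17.8% of all genes), and 60 of 71 lay below the median of all genes, as 50% of all genes do. At a floor of 50 CPM the excess was smaller, with 38 of 62 (61.3%) below it and a difference of the medians of -0.12 in place of -0.30 in G1 cells, and with 32 of 62 (51.6%) and -0.0189 in place of -0.0925 in S or G2/M cells. Across both states, 58 of the 71 genes were lower in each (50.6% of all genes), 5 were higher in each (30.2%) and 8 were lower in G1 only (6.07%). For 59 of 71 genes the G1 ratio was the lower (47.3% of all genes). Without mitochondrial and cytosolic ribosomal protein genes in the totals, the members below 0 numbered 42 in S or G2/M cells (45.6% of all genes) and 47 in G1 cells (43.9% of all genes).

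In a finer grading without phase calls, the library labelled RUNX1 was also the lower in every bin. Cells were sorted into 5 bins of equal size by their UMIs from S and G2/M genes per 10000. In the lowest bin, with 67 control cells and 2013 of the library labelled RUNX1, the summed level was 6513 and 5133 CPM. It was 7753 and 6812 CPM in the middle bin and 7419 and 6437 CPM in the highest. In each library the level as scaled was thus lowest in cells with the fewest cell cycle transcripts, and highest in the middle bin. Mitochondrial and cytosolic ribosomal protein genes took 11.8% and 29.2% of control UMIs in the lowest bin, and 9.27% and 24.1% in the highest. In the library labelled RUNX1 they took 14.0% and 31.4%, and 11.6% and 27.6%. The bins were not read without these genes in the totals.

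Depth moved with the level in the library labelled RUNX1. Its cells under 8000 UMIs had a summed level of 4956 CPM and those of 24000 UMIs or more had 6690 CPM, while the same bins of the control had 7325 and 7940 CPM. In every depth bin the library labelled RUNX1 was lower. Cells thinned to 8000 UMIs gave a log2 ratio of -0.34 for the summed level. Mitochondrial transcripts took 10.5% of UMIs in control G1 cells and 14.0% in those of the library labelled RUNX1, against 9.40% and 12.5% in S or G2/M cells. The median UMIs per cell were 10611 and 13083.5 in G1 cells and 13152 and 20306.5 in S or G2/M cells, control first. The part of depth and of mitochondrial share in the values by state was not tested.

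Within the library labelled RUNX1, where culture and preparation are shared, G1 cells had less of these transcripts than S or G2/M cells. The summed log2 ratio of G1 over S or G2/M was -0.28 (-0.29 to -0.27). The members' median was -0.22, against -0.03 for all genes. Among the 71 genes, 9 were lower by 0.5 or more (15.4% of all genes), 0 were higher (12% of all genes), and 62 lay below the median of all genes, as 50% of all genes do. At a floor of 50 CPM, 39 of 62 (62.9%) lay below it, and the difference of the medians was -0.0903 in place of -0.19. As reported, 63 of the 71 genes were lower in G1 cells (52.8% of all genes). Under the other scalings this ran from 50 genes without mitochondrial and cytosolic ribosomal protein genes in the totals (42.8% of all genes) to 71 with TMM (64% of all genes) or median of ratios (70.3%). In the control, whose G1 group held only 425 cells, the summed log2 ratio was -0.08 (-0.09 to -0.06) and the members' median -0.04, against -0.06 for all genes. There 1 gene was lower by 0.5 or more (11.3% of all genes), 0 were higher (3.51% of all genes) and 33 lay below the median of all genes, as 50% of all genes do. The difference between the libraries in this ratio has no test.

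MRPL23 showed the largest gap between the states. It had 180, 184 and 186 CPM in control cells called G1, S and G2/M, and 86.7, 157 and 154 CPM in the library labelled RUNX1. Only its G1 cells in the library labelled RUNX1 were far below the other 5 values. Its log2 ratio between the libraries was -1.05 (-1.16 to -0.94) in G1 cells and -0.25 (-0.30 to -0.21) in S or G2/M cells. MRPL50 followed, at -1.06 and -0.48, and MRPL3, which lies near the catalytic centre of the large subunit, at -0.87 and -0.36.

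Other genes varied with the state alike in both libraries, or hardly at all. MRPS6 had 57.7 CPM in control G1 cells and 99.0 in those called S or G2/M, and 37.3 and 67.8 CPM in the library labelled RUNX1, log2 ratios of -0.78 and -0.86 between the states. It was the 1 gene past 0.5 in the control. MRPS18A, MRPS5 and MRPL49 showed the reverse of the common pattern, with a ratio between the libraries that was lower in S or G2/M cells than in G1. For MRPS5, at the mRNA entrance of the small subunit, these ratios were -0.26 (-0.33 to -0.20) and -0.13 (-0.28 to 0.03), and the intervals of all 3 overlapped between the states.

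**Figure D3:**
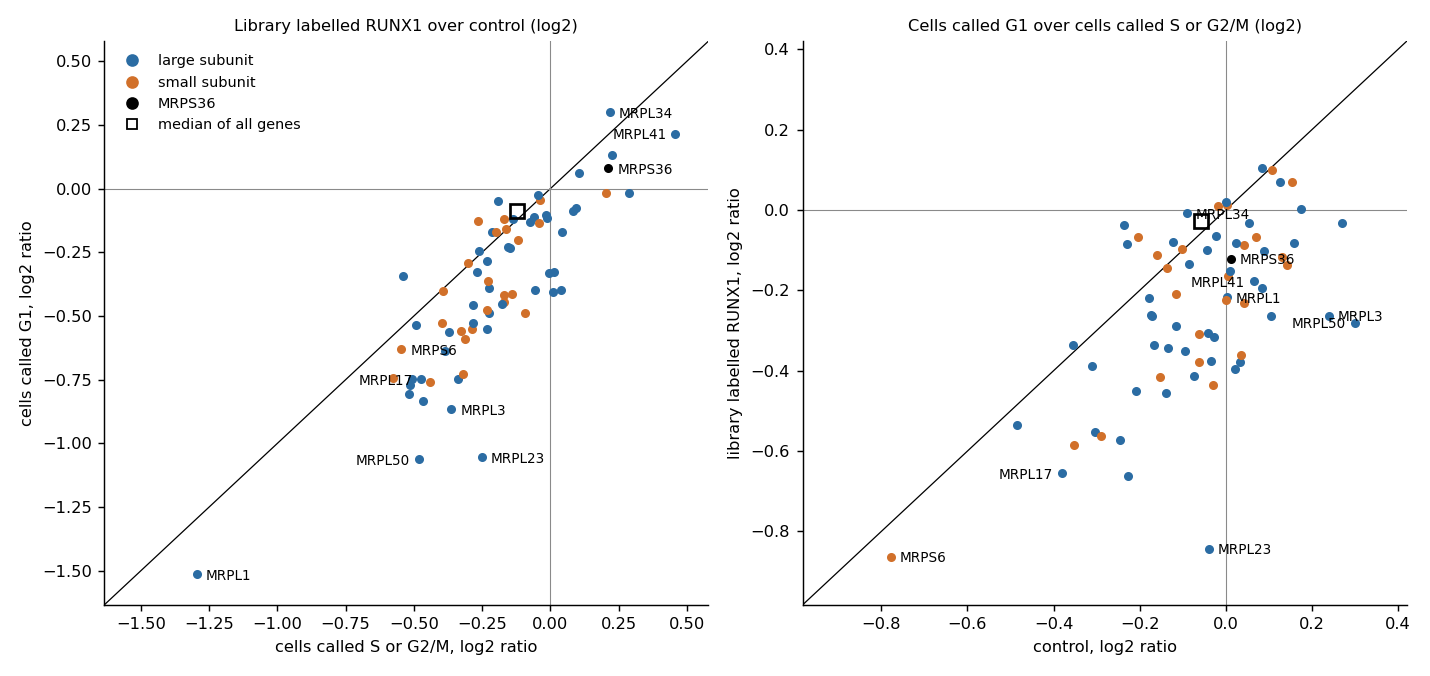
Each point is 1 of the 71 genes; left, the log2 ratio between the libraries, RUNX1 label over control, in S or G2/M cells (horizontal) and G1 cells (vertical); right, the log2 ratio of G1 cells over S or G2/M in the control (horizontal) and in the library labelled RUNX1 (vertical). On the left 59 genes lie under the line of equality and MRPL1 is low in both; on the right MRPL23 is low in the library labelled RUNX1 alone, and squares mark the medians of all genes.

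The difference was spread over cells. The median control cell held 74.9 UMIs of these genes per 10000 (quartiles 67.1 and 82.5), and the median cell of the library labelled RUNX1 held 57.3 (48.0 and 67.1), so the quartile ranges met at their edge. After thinning to 8000 UMIs, the median cell showed 38 of the 76 genes for the control but only 32 for the library labelled RUNX1, and 0 cells showed none. In G1 cells of the library labelled RUNX1 the median was 52.4 UMIs per 10000, in cells called S 66.2 and in cells called G2/M 66.1. Corresponding control values were 72.0, 74.6 and 76.2, so that each class of the control had a higher median than any class of the library labelled RUNX1.

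The mRNAs that this ribosome translates went the other way in sum. The 13 mRNAs encoded in mitochondrial DNA totalled 79634 CPM for the control and 106706 CPM for the library labelled RUNX1. For every 1000 of their UMIs there were 94.9 UMIs of mitochondrial ribosomal protein genes for the control but only 56.7 for the library labelled RUNX1. The individual mRNAs did not share a direction, with a median log2 ratio of 0.27. MT-CO3, a subunit of cytochrome c oxidase, was at 0.87 and MT-ATP6, of ATP synthase, at 0.81, whereas MT-ND4L was at -1.12 and MT-ND3, of complex I, at -0.998. MT-ND4L and MT-ND4 lie on 1 transcript, as do MT-ATP8 and MT-ATP6, so the assay may not divide their reads correctly. Cytosolic ribosomal protein genes had a median of 0.24 over the 79 measured, and there were 29.8 UMIs of mitochondrial ribosomal protein genes for every 1000 of theirs for the control but only 20.2 for the library labelled RUNX1. In each of these pairs, the mitochondrial ribosomal protein genes were the lower relative to the other set in the library labelled RUNX1.

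Over all cells, proteins of the same ribosome under other symbols were nearer to the all-gene median. Of 7 listed and measured, the median log2 ratio was -0.10, with 1 lower by 0.5 or more (21.4% of all genes) and 0 higher (13.8% of all genes). That 1 was GADD45GIP1, at 275 and 186 CPM (-0.56), followed by MRP63 at -0.34. DAP3, a GTP-binding protein of the small subunit, and PTCD3 were at -0.00 and 0.01, with 82.7 and 82.4 CPM for DAP3. In G1 cells the median of these 7 was -0.23, with 6 below the median of all genes there (-0.09). In S or G2/M cells it was -0.03, with 2 below the median of all genes there (-0.12). For G1 over S or G2/M in the library labelled RUNX1 it was -0.24, with 7 of 7 below. By definition 50% of all genes lie below each such median. Assembly factors, which mature the rRNAs and subunits, had a median of -0.19 over 17 measured of 20, with 1 lower and 0 higher by as much, against the same shares of all genes. RBFA was at -0.58 and DDX28 at -0.47, and METTL17 at 0.23 and MTERFD2 at 0.22.

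Over all cells, the factors that run mitochondrial translation had medians from near that of the ribosomal proteins to lower ones. Unless a state is named, the values here are over all cells. Translation factors had a median of -0.27 over 11 measured of 12, with 2 lower by 0.5 or more and 0 higher, against 21.4% and 13.8% of all genes. The initiation factors MTIF2 and MTIF3 were at -0.55 and -0.50, the ribosome recycling factor GFM2 at 0.18 and the elongation factor TUFM at 0.01, with 384 and 385 CPM. Mitochondrial tRNA synthetases had a median of -0.49 over 11 measured of 17, with 4 lower and 0 higher, beside the same shares of all genes. Their median was -0.31 in S or G2/M cells and -0.29 in G1 cells. The members' medians in these states were -0.22 and -0.39, so in G1 cells the members were the lower set. IARS2, for isoleucine, was at -1.06 (85.6 and 41.1 CPM) and WARS2 at -0.80, while SARS2 was at 0.38 and TARS2 at 0.30. Factors of the RNA granule and of mitochondrial mRNA stability had a median of -0.48 over 14 measured of 16, with 7 lower and 0 higher, beside the same shares of all genes. This list also holds TFAM, POLRMT and TFB2M, which act in transcription of mitochondrial DNA. In S or G2/M cells and G1 cells the medians were -0.38 and -0.56 for this list, and -0.29 and -0.44 for translation factors. SLIRP, which with LRPPRC stabilises mitochondrial mRNAs, was at -1.02 (266 and 132 CPM), and TFAM, which packages mitochondrial DNA and starts its transcription, at -0.95 (79.1 and 40.9 CPM). At the upper end were FASTKD1 at 0.09 and SUPV3L1 at -0.20.

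**Figure D4:**
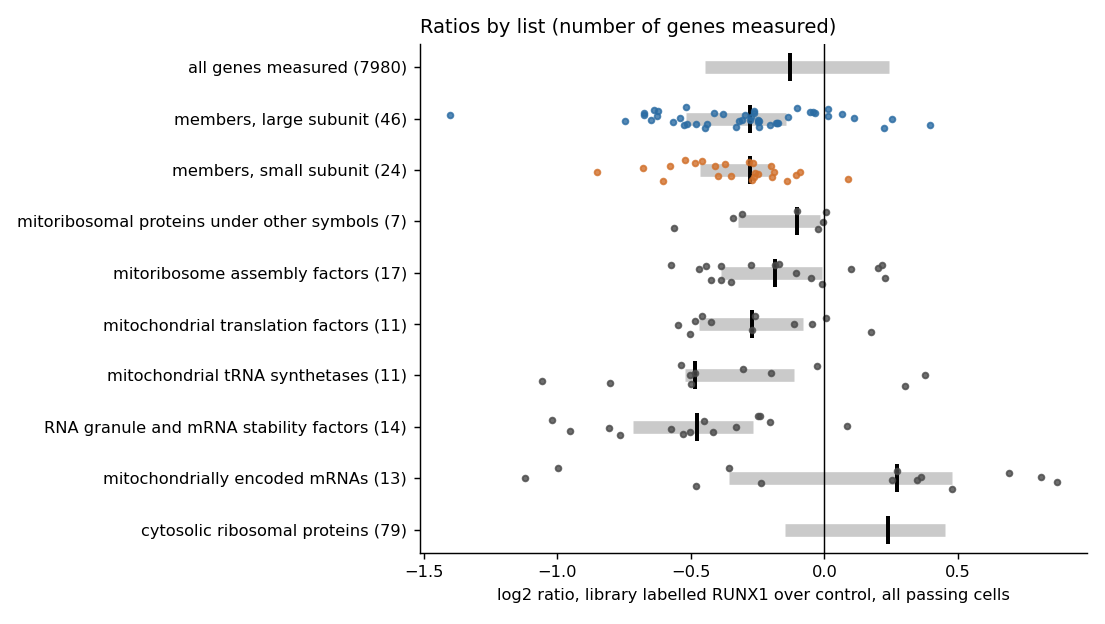
Log2 ratio, library labelled RUNX1 over control, in all passing cells (horizontal axis) by list, with the number of genes measured; points are genes, black ticks medians and grey bars the interquartile range, and points are left out for the longest lists. Both subunits have medians of -0.28, the RNA granule list lies at -0.48, and the mitochondrially encoded mRNAs at 0.27 with the widest range of the lists with points. The RNA granule list also holds TFAM, POLRMT and TFB2M.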

How the data were processed

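Single-cell RNA-seq libraries of Nalm-6 cells were analysed, 1 control and 1 labelled RUNX1, grouped by their genotype labels. The authors counted UMIs against hg19 and mm10 together in Cell Ranger 3.0.2, and the deposited values are raw UMI counts of human genes per cell with no normalization. A further deposited table holds human and mouse UMI counts per barcode. The 10 ChIP-seq samples were not analysed here. The members and lists were chosen with earlier results of these data known.

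Kept cells had over 2000 and under 6000 genes, less than 20% mitochondrial UMIs and fewer than 500 mouse UMIs. Left out were 475 barcodes (control) and 691 (library labelled RUNX1), and doublets were not removed. UMIs were summed over cells and scaled to CPM, and log2 ratios, with no pseudocount, were read for genes that reached 10 CPM in 1 library or both. CPM have exact Poisson intervals and ratios exact conditional binomial intervals, at 95%. Intervals cover counting error only. For cell cycle calls, cells were thinned at random to 8000 UMIs and scored in scanpy 1.11.5 with 43 S and 54 G2/M genes. The ratio code was run on simulated counts of 7340 genes, drawn for both groups around the sums of the control with counting error alone. There 95.57% of intervals contained the truth, and 98 of 100 genes changed 1.5-fold, and 0 of 7140 unchanged genes, passed a log2 ratio of 0.5. The intervals assume this same model, so the run checks the arithmetic and cannot speak to variation between cells or cultures. Genes were named by a rule: the 8 lowest and 8 highest ratios, the 5 highest levels, the 3 largest and 3 smallest differences between states, the MRPS18 paralogs, the members under the floor, and the 2 lowest and 2 highest genes of each list. Others were named after their values were seen, namely RUNX1, MRPS2, MRPL21, SDAD1, CCNG2, POLRMT, TFB2M, MYC, NRF1 and those in the flagged results. Positions come from GENCODE v44lift37 on GRCh37, matched by identifier for 74 of 76 genes, and promoters from RefSeq on GRCh38.p14, where 64 of 67 windows continued into a transcript of their gene. Alternatives concerned the scaling, cell filter, gene floor, cell weights, pseudogenes, phase mix, thinning and fold. Software was R 4.3.3 with edgeR 4.0.16 (TMM factors), and pandas 2.3.3, scipy 1.17.1 and numpy 2.4.6 under Python 3.11.15.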

Additional observations from a re-analysis of the deposited data

Results flagged for a closer look

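MRPL50, MRPL19, MRPL3, MRPS9 and MRPS12 were picked out because the log2 ratio of G1 cells over S or G2/M cells was above 0 in the control and below 0 in the library labelled RUNX1, with both counting intervals clear of 0. The ratios, control first, were 0.30 and -0.28 for MRPL50, 0.16 and -0.0832 for MRPL19, 0.24 and -0.26 for MRPL3, 0.14 and -0.14 for MRPS9, and 0.13 and -0.12 for MRPS12. The difference was not tested, since each group has 1 library, and the control values rest on 425 G1 cells. The signs also depend on the scaling. Without mitochondrial and cytosolic ribosomal protein genes in the totals, the ratio of MRPL19 in the library labelled RUNX1 moved above 0. Its interval there as reported ended at -0.00023, and that of MRPS9 in the control began at 0.0022. The share of all genes with such opposite signs was not counted.

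Pseudogene rows that the rule leaves out held UMIs too, and they moved in both directions. Picked out were the 3 with a counting interval above the control. With the library labelled RUNX1 first, MRPL42P6 had 7 and 0 UMIs, MRPL42P4 had 46 and 5, and MRPL45P2 had 351 and 293. In the same order, MRPS31P5 had 130 and 184 UMIs (log2 -0.49, -0.83 to -0.16) and MRPS33P2 had 7 and 19 (-1.43, -2.93 to -0.12), which is lower in the library labelled RUNX1.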

How the results depend on the processing

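None of the medians or the sum changed sign under the alternatives that were run, although single genes near 0 did (13 of 71 without mitochondrial and cytosolic ribosomal protein genes in the totals, 5 with TMM), and each left the members' median below that of all genes, with differences from -0.32 to -0.000341 (floor of 50 CPM) in all cells, from -0.19 to -0.0189 in S or G2/M cells, from -0.51 to -0.12 in G1 cells, and from -0.27 to -0.0903 for G1 over S or G2/M in the library labelled RUNX1. Leaving mitochondrial and cytosolic ribosomal protein genes out of the totals moved most values: the summed log2 ratio became -0.13, the median -0.0781, the members lower by 0.5 or more 3 (10.8% of all genes) and those higher 1 (24.8% of all genes), the median in S or G2/M cells -0.0496 and in G1 -0.22, and the median of G1 over S or G2/M -0.12. With TMM these were -0.45 for the sum, -0.40 for the median and -0.34 for G1 over S or G2/M, and with median of ratios -0.45, -0.40 and -0.40. Weighting all cells equally gave -0.38 for the sum and -0.35 for the median, cells under 10% mitochondrial UMIs gave a sum of -0.35, thinned cells -0.34, and members without pseudogene rows -0.34, with 9 of 41 genes lower by 0.5 or more (21.4% of all genes). With the phase mix of the control the sum was -0.20, the median -0.21 and the genes lower by 0.5 or more 8 of 71 (13.4% of all genes), and at 2-fold 1 gene was lower (4.1% of all genes) and 0 higher (5.18%). No paired analysis was possible because each group of the single-cell data has 1 library, and for the same reason no replicate could be left out. Where values moved and the alternative's construction does not show why, the cause was not tested. Counting error is small at these depths, and variation between cultures is not measured.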

Other observations

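Barcodes that failed the cell filter were read as well. The summed level of the mitochondrial ribosomal protein genes was 6560 CPM in the 475 control barcodes left out and 5547 CPM in the 691 of the library labelled RUNX1. In the 94 and 260 barcodes left out for 20% mitochondrial UMIs or more it was 2229 and 4372 CPM, beside 64.0% and 27.01% mitochondrial UMIs.

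Transcription factors linked to mitochondrial biogenesis were also measured. MYC had 501 CPM for the control, 420 CPM for the library labelled RUNX1 (log2 -0.25), with -0.06 in S or G2/M cells and -0.59 in G1 cells. NRF1 was under the floor, with 560 and 367 UMIs (log2 -0.60, -0.80 to -0.41).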
